A study of Danio rerio with 6 samples.

Results

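The genes described here build or regulate microtubules and the neuronal cytoskeleton of the zebrafish embryo. They were taken from the gene table by their symbols: the alpha (tuba), beta (tubb) and gamma (tubg) tubulins, the stathmins (stmn), the neurofilament genes (nefl, nefm), the internexin genes (inaa, inab), the map1, map2 and mapt genes of microtubule-associated proteins, the doublecortin family (dcx, dclk), gap43, and the collapsin response mediator genes (crmp, dpysl). The rule found 52 of 30111 genes. They are 10 alpha tubulins, 6 beta tubulins, 1 gamma tubulin, 7 stathmins, 6 neurofilament and internexin genes, 8 genes of map1, map2 and mapt, 6 genes under dcx and dclk, gap43, and 7 genes under crmp and dpysl. Under dcx the rule matched only dcxr, which encodes a reductase of sugar metabolism and is not a cytoskeletal gene. It is counted with the 52 and named wherever it was called.

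Microtubules are hollow polymers of alpha and beta tubulin dimers, and gamma tubulin starts their growth at centrosomes and other nucleation sites. In vertebrates several genes encode each tubulin, and the encoded isotypes differ mainly in their tails and in the tissues that use them. Neurons add further layers: stathmins bind free tubulin dimers, MAP and tau proteins bind the microtubule wall, neurofilaments set axon calibre, and GAP-43 and the collapsin response mediators act in the growth cone.

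RNA of whole wild-type embryos of the AB strain was sequenced at T1, T2 and T3, that is 10, 24 and 36 hpf, where hpf is hours after fertilisation. All groups share the genotype, the labels give no treatment, and stage is the only difference they name. Each stage had 100 embryos, which were split at random into 2 sequenced pools, giving 6 libraries. No source says that the pools came from separate clutches, so a p-value measures the spread between the libraries, which may be technical.

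Values are RPKM, reads in a gene scaled by its exon length and by the reads of the library, so levels can be compared between genes. The reads in genes, recovered from the RPKM, were 43611332 to 51846237 per library, of which the 52 genes took 0.197% to 0.263% at T1, 0.408% to 0.440% at T2 and 0.543% to 0.572% at T3. A gene was called where limma gave an adjusted p under 0.05 and a log2 fold change above 1 in size on the log2(RPKM + 0.5) scale, a scale that understates the change of genes with low values. In whole embryos, more cells of a type and more RNA per cell cannot be told apart.

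The 2 T1 libraries stood further apart than those of the later stages. Over all genes of at least 1 RPKM in every library, the SD of the log2 difference between replicates was 0.39 at T1, 0.16 at T2 and 0.15 at T3. Of the 52 genes, 39 had a higher level in the first than in the second T1 library. At T2 and T3, 16 and 32 were higher in replicate 1, and no such count was taken over all genes. The median log2 difference of the 52 at T1 was 0.31, against 0.06 over the genes of at least 1 RPKM, which leave out some of the 52. At T2 and T3 the median of the 52 was -0.08 and 0.01. At T1, 8 genes were at least 2-fold apart on the log2(RPKM + 0.5) scale, and none was at T2 or T3. These 8 were tuba8l3, tuba1a, inab, dcxr, stmn1b, dpysl4 and nefma, higher in replicate 1, and maptb, higher in replicate 2. Of 16 neuron marker genes, 14 were higher in T1 replicate 1, and their summed level was 41.8 RPKM there and 28.9 RPKM in T1 replicate 2. Summed markers of some other tissues were higher in T1 replicate 1 as well, such as epidermis (3505 and 2230.2 RPKM), skeletal muscle (118 and 73.2 RPKM) and motile cilia (27.1 and 18.6 RPKM). By gene, 5 of 7, 6 of 10 and 8 of 12 of these markers were higher there. Lower sums were those of germ cell markers (5.97 and 10.7 RPKM) and spindle genes (820 and 890 RPKM, 3 of 15 genes higher). Neural progenitor markers were nearly equal (423 and 424 RPKM, 4 of 9 higher). The part of this difference in the results was not tested.

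From 10 to 24 hpf, most of the stathmins and of the neuronal filament and microtubule-associated genes rose, and one of the internexin genes fell. Of 51 genes tested, 27 were called higher and 1 lower. Over all 25088 genes tested, 15.4% were called, 12.1% higher and 3.29% lower. The median log2 fold change was 1.31 for the 51 genes and 0.07 for all genes. The only gene below the filter was map1sb. Stage values did not overlap and were higher at T2 for 42 of the 52 genes and lower for 3, against 40.5% and 31.4% of all genes tested. Without T2 replicate 1 or T2 replicate 2, no gene of the whole table was called. With the T3 libraries added to estimate the spread, 27 and 28 of the genes were called higher without T2 replicate 1 and T2 replicate 2. Without T1 replicate 1, 35 were called higher, the 8 added ones being dclk3, dcxr, dpysl2a, dpysl4, tuba1a, tuba1c, tuba8l and tubb6.

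From 24 to 36 hpf, 15 of 52 genes were called higher and 1 lower, where 6.04% of all 25183 genes tested were called, 3.92% higher and 2.12% lower. Their median log2 fold change was 0.59, against -0.08 over all genes. Stage values did not overlap and were higher at T3 for 37 genes and lower for 11, against 29.2% and 43.8% of all genes tested. This step rests on small within-stage spreads. With all 6 libraries in the fit, 13 were called higher and none lower, and leaving out 1 library of that fit left 3 without T3 replicate 1, 4 without T3 replicate 2, 4 without T2 replicate 1 and 8 without T2 replicate 2. In the fit of the T2 and T3 libraries alone, leaving out 1 library gave 14 to 17.

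Between 10 and 36 hpf, 34 of 52 genes were called higher and 1 lower, with a median log2 fold change of 2.14 against 0.00 over all genes. Over all 25184 genes tested, 25% were called, 16.3% higher and 8.66% lower. Without T3 replicate 1 and T3 replicate 2, 25 and 24 were called higher, and 33 in either case when the T2 libraries were in the fit. The comparisons share libraries and are not independent of each other. Stage means were ordered T1 below T2 below T3 for 36 genes. Called at both steps were 11 genes: crmp1, dclk2b, dpysl3, inab, mapta, neflb, nefma, nefmb, stmn1b, stmn2a and tuba2. Called higher only from T1 to T2 were 16 genes, and 4 only from T2 to T3 (dclk1a, dpysl2a, dpysl4 and tubb6). Of these 4, dclk1a and dpysl2a were not called with a pseudocount of 1, and dpysl4 not with all 6 libraries in the fit. Neither step was called for 18 genes, 10 of them tubulins, among which were tuba8l4 and tubb2b. A gene past the threshold at one step and not at the other is not thereby shown to differ between the steps. No share over all genes was taken for the order of stage means or for calls joined over both steps. The counts of these are therefore descriptions without a background.

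**Figure D1:**
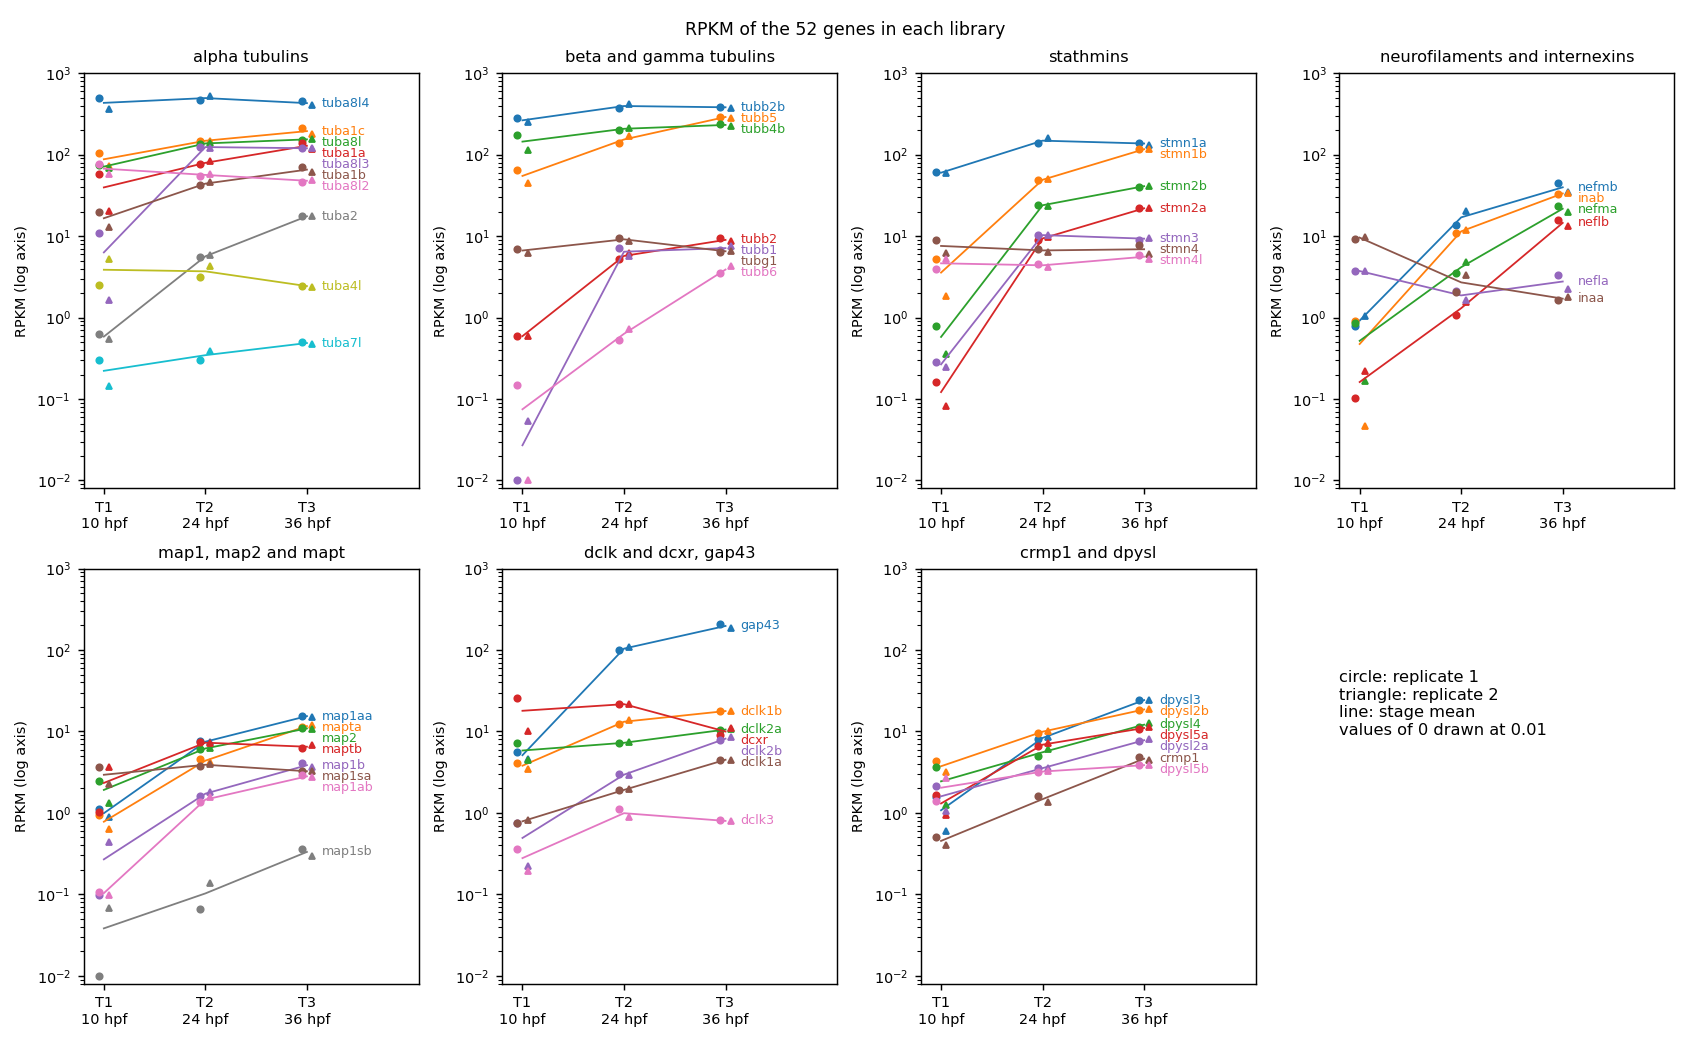
RPKM of each of the 52 genes in each library, on a log axis, by stage and gene class; circles are replicate 1, triangles replicate 2 and lines join the stage means, with values of 0 drawn at 0.01. The T1 points of tuba8l3 (10.96 and 1.67 RPKM), inab and nefma lie far apart, while T2 and T3 points nearly coincide for most genes.

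Tubulin genes took up 0.167% to 0.226% of all reads in genes at T1, 0.302% to 0.326% at T2 and 0.351% to 0.372% at T3. The summed alpha-tubulin level was 850.3 and 603 RPKM at T1, 1061 and 1129 RPKM at T2 and 1213 and 1108 RPKM at T3. The summed beta-tubulin level was 519 and 410.5 RPKM at T1, 732 and 809 RPKM at T2 and 939 and 909 RPKM at T3. Both sums were higher in each T2 library than in either T1 library, and the T3 alpha sum overlapped the T2 sum. Tubulin genes are close copies of each other, and the sources used here do not give how reads matching several of them were counted, so the split between single tubulin genes is uncertain.

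Of the 10 alpha-tubulin genes, 3 rose from T1 to T2 (tuba1b, tuba2 and tuba8l3), 1 from T2 to T3 (tuba2) and 6 from T1 to T3 (those 3 with tuba1a, tuba1c and tuba8l). Over all genes tested, 12.1%, 3.92% and 16.3% were called higher in these comparisons, shares that stand beside the counts of every class below. In classes of at most 10 genes, a single call cannot be weighed against them. The most abundant of the 52 genes at every stage was tuba8l4 (chromosome 6, 6972958 to 6976107, minus strand, GRCz11). Its level was 502 and 363 RPKM at T1, 468 and 523 RPKM at T2 and 452 and 406 RPKM at T3, which put its stage mean at rank 124, 101 and 109 of all genes. These values overlapped between T1 and both later stages, and the log2 fold change from T1 to T3 was 0.01 with a 95% interval of -0.49 to 0.50. The sign of the difference from T1 turned without T1 replicate 2, and toward T3 also without T3 replicate 1.

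The second alpha tubulin in level, tuba1c (chromosome 23, 35690657 to 35694171), read 104 and 72.0 RPKM at T1, 149 and 148 RPKM at T2 and 211 and 179 RPKM at T3. The stages did not overlap, and the rise from T1 to T3 was called (log2 fold change 1.16 ± 0.21 SE, adjusted p = 0.0109). It was not called without T1 replicate 2 or either T3 library. The T1 to T3 calls of tuba1a, tuba1b, tuba8l and tuba8l3 were also lost without either T3 library. That of tuba1a was lost there even with the T2 libraries in the fit. The genes tuba1c, tuba1a and tuba1b lie within a short stretch of chromosome 23, where tuba1c on the minus strand is 14495 bases from tuba1a on the plus strand, and tuba1a is 2158 bases from tuba1b on the same strand. All of them had higher stage means at each later stage, with tuba1a at 39.6 ± 27, 79.4 ± 4.6 and 129 ± 17 RPKM and tuba1b at 16.6 ± 4.9, 44.1 ± 2.5 and 65.6 ± 6.2 RPKM (mean ± SD, n = 2).

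Between T1 and T2 alone, a large difference was seen for tuba8l3 (chromosome 9, 7662642 to 7673856). It read 10.96 and 1.67 RPKM at T1, 126 and 122 RPKM at T2 and 120.1 and 119.8 RPKM at T3. The T1 libraries differed from each other, yet both lay far below every later library, and the later libraries nearly coincided. The log2 fold change from T1 to T2 was 4.64 ± 0.77 (adjusted p = 0.0131) and that from T2 to T3 was -0.05 (95% interval -0.19 to 0.09), whose sign turned under median centring (0.08) and quantile normalization (0.09).

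The gene tuba2 (chromosome 11, 3336524 to 3343463) was the only alpha tubulin called at both steps. Its level was 0.621 and 0.547 RPKM at T1, 5.47 and 5.84 RPKM at T2 and 17.5 and 17.6 RPKM at T3. Each stage stood clear of the one before it, with log2 fold changes of 2.51 ± 0.15 (adjusted p = 0.00143) and 1.55 ± 0.07 (adjusted p = 0.000129). In contrast, tuba8l2 had stage means of 67.4 ± 13, 56.4 ± 1.4 and 47.8 ± 2.2 RPKM and tuba4l of 3.87 ± 1.9, 3.70 ± 0.82 and 2.43 ± 0.05 RPKM, and neither was called in any comparison. The lowest alpha tubulin was tuba7l, at 0.144 to 0.503 RPKM.

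Of the 6 beta-tubulin genes, 3 rose from T1 to T2 (tubb1, tubb2 and tubb5), 1 from T2 to T3 (tubb6) and 4 from T1 to T3 (the same with tubb6 added). The highest was tubb2b (chromosome 8, 52713232 to 52715911), at 279.7 and 249 RPKM at T1, 378 and 413 RPKM at T2 and 389 and 375 RPKM at T3. It was higher in all 4 later libraries than at T1, by a log2 fold change of 0.58 ± 0.11 at T2 (adjusted p = 0.0190), under the fold threshold. Its difference between T2 and T3 was -0.05 and turned positive under median centring (0.08), quantile normalization (0.05) and without T2 replicate 2 (0.01).

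The gene tubb5 (chromosome 16, 10318877 to 10327624) moved from a minor to a major beta tubulin. It read 64.5 and 45.3 RPKM at T1, 139.9 and 168 RPKM at T2 and 294 and 286 RPKM at T3. No stages overlapped. The rise to T2 was called (log2 fold change 1.49 ± 0.20, adjusted p = 0.00811), and that from T2 to T3 was 0.92 ± 0.09 (adjusted p = 0.00127), under the fold threshold but called under median centring, under quantile normalization and without T2 replicate 2. Its rank among all genes went from 1185 at T1 to 407 at T2 and 186 at T3.

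At the low end, tubb6 (chromosome 24, 2940890 to 2947404) read 0.150 and 0 RPKM at T1, from 10 and 0 reads, 0.534 and 0.731 RPKM at T2 and 3.51 and 4.27 RPKM at T3. It was called from T2 to T3 (log2 fold change 1.95 ± 0.14, adjusted p = 0.000435). The T1 libraries held only 0 and 4 reads of tubb1, which had 5.64 to 7.51 RPKM at T2 and T3. In mammals tubb1 is known as the beta tubulin of platelets and their precursors. The third gene called from T1 to T2, tubb2, stood at 0.592 ± 0.004, 5.72 ± 0.72 and 8.99 ± 0.52 RPKM.

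The gamma-tubulin gene tubg1 (chromosome 3, 37059806 to 37082625) read 7.03 and 6.29 RPKM at T1, 9.61 and 8.67 RPKM at T2 and 6.48 and 6.56 RPKM at T3. Both T2 libraries lay above the other 4. It was called in no comparison, with log2 fold changes of 0.43 ± 0.13 (adjusted p = 0.0609) and -0.46 ± 0.08 (adjusted p = 0.00665). Its T1 to T3 difference was -0.03 and turned to 0.09 under median centring and to 0.05 without T1 replicate 1.

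**Figure D2:**
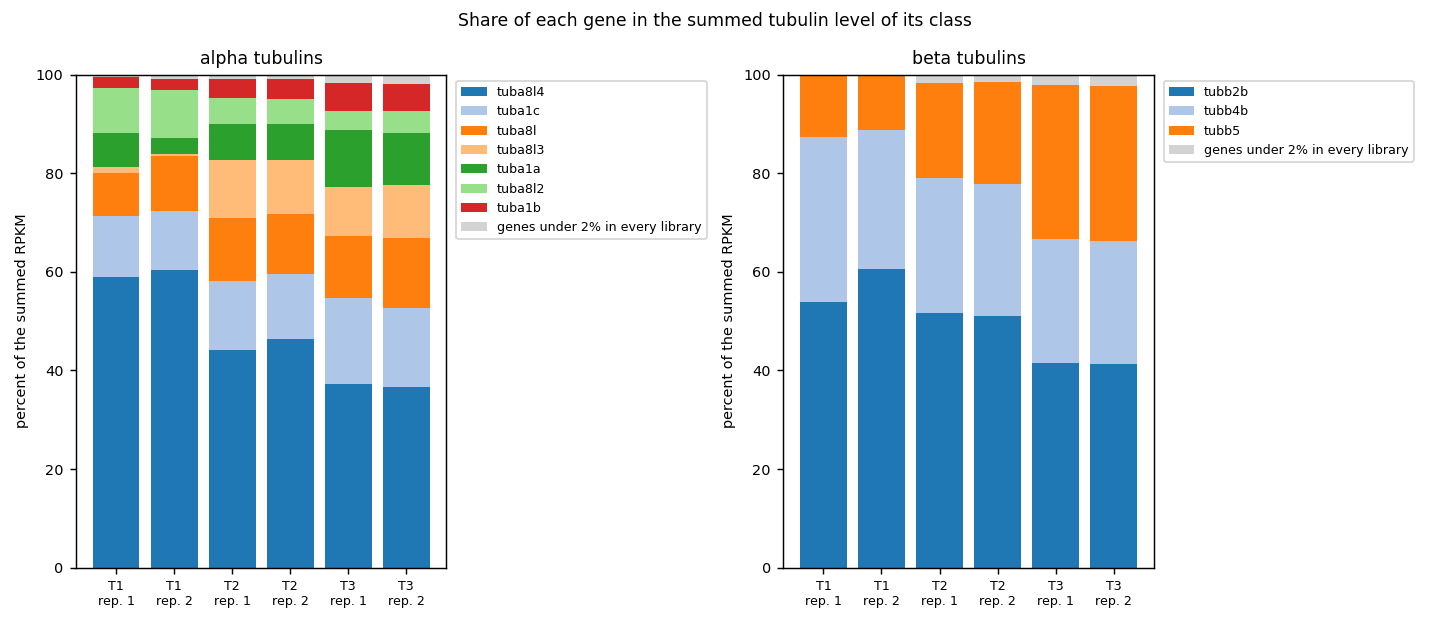
Share of each alpha-tubulin gene (left) and beta-tubulin gene (right) in the summed RPKM of its class, in percent, in each of the 6 libraries; genes under 2% in every library are joined in grey. The share of tuba8l4 narrows from 59.0% and 60.3% at T1 to 37.3% and 36.6% at T3, and that of tubb5 widens from 12.4% and 11.03% to 31.3% and 31.5%.

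The make-up of the tubulin mRNA pool shifted in both classes. Among alpha tubulins, tuba8l4 held 59.7% ± 0.88 of the summed RPKM at T1, 45.2% ± 1.6 at T2 and 37.0% ± 0.47 at T3 (mean ± SD, n = 2). The T1 share of tuba8l3 was 0.783% ± 0.72, and its later shares were 11.3% ± 0.74 (T2) and 10.4% ± 0.64 (T3). The 3 genes of the chromosome 23 stretch gained share between T1 and T3: tuba1c from 12.1% ± 0.17 to 16.7% ± 0.89, tuba1a from 5.16% ± 2.5 to 11.1% ± 0.75 and tuba1b from 2.27% ± 0.13 to 5.64% ± 0.17. The share of tuba8l2 went from 9.32% ± 0.42 to 4.14% ± 0.45. None of these T1 and T3 shares overlapped, where the levels of 39.7% of all genes tested were higher and 38.5% lower at T3 without overlap. Among beta tubulins, tubb2b went from 57.3% ± 4.7 at T1 to 51.4% ± 0.42 at T2 and 41.3% ± 0.17 at T3, tubb4b from 30.8% ± 3.7 to 27.0% ± 0.56 and 25.1% ± 0.02, and tubb5 from 11.7% ± 0.99 to 19.9% ± 1.1 and 31.4% ± 0.07. The shares are descriptions, since 2 libraries against 2 cannot give an exact permutation p under 0.333.

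Stathmins bind tubulin dimers and favour microtubule shrinkage, and in mammals stathmin-2 is a protein of growing axons. Of the 7 genes, 5 rose at the first step and 2 at the second, 5 were called higher at T3 than at T1, and none fell. The most abundant was stmn1a (chromosome 19, 17208118 to 17210708), at 60.9 and 59.3 RPKM at T1, 139 and 159 RPKM at T2 and 141 and 133 RPKM at T3. The T1 pair lay below all later libraries and T2 and T3 overlapped. The rise to T2 was 1.30 ± 0.11 on the log2 scale (adjusted p = 0.00296), and the later difference of -0.11 turned to 0.01 under median centring and 0.05 under quantile normalization.

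Its copy stmn1b (chromosome 16, 34523538 to 34527206) rose at both steps. It read 5.28 and 1.86 RPKM at T1, 48.7 and 49.7 RPKM at T2 and 117 and 116 RPKM at T3, with log2 fold changes of 3.75 ± 0.43 (adjusted p = 0.00536) and 1.24 ± 0.06 (adjusted p = 0.000133). No stages overlapped, and at T3 the level of stmn1b came close to that of stmn1a. The second rise was not called with all 6 libraries in the fit.

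The stathmin-2 genes were almost absent at T1. The level of stmn2a (chromosome 16, 16165029 to 16182355) was 0.161 and 0.0826 RPKM at T1, from 15 and 8 reads, 8.90 and 9.85 RPKM at T2 and 22.1 and 21.9 RPKM at T3. It was called at both steps (log2 fold changes 3.99 ± 0.16 and 1.19 ± 0.07, adjusted p = 0.000714 and 0.000257). The level of stmn2b (chromosome 19, 31771252 to 31790551) was 0.798 and 0.360 RPKM at T1, 24.3 and 23.6 RPKM at T2 and 40.6 and 41.5 RPKM at T3. Its log2 fold change between T1 and T3 was 5.30 ± 0.22 (adjusted p = 0.000328). In the same class, stmn3 went from 0.267 ± 0.03 RPKM at T1 to 10.3 ± 0.03 at T2 and 9.31 ± 0.35 at T3, called higher at T2 and at T3 against T1 and not between T2 and T3. The levels of stmn4 (6.10 to 8.96 RPKM) and stmn4l (3.995 to 5.93 RPKM) overlapped between T1 and both later stages.

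Neurofilament light and medium chains and alpha-internexin co-assemble into the intermediate filaments of axons. Of the 6 genes, 4 were called higher at each step (inab, neflb, nefma and nefmb), inaa fell, and nefla was not called. At T3 the highest was nefmb (chromosome 8, 6863462 to 6866890), with 0.778 and 1.06 RPKM at T1, 13.9 and 20.1 RPKM at T2 and 44.5 and 35.1 RPKM at T3. It rose by 3.61 ± 0.23 and 1.22 ± 0.19 on the log2 scale (adjusted p = 0.00161 and 0.00505), and without T2 replicate 1 the second rise was not called.

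The steepest change from 24 to 36 hpf among the 52 genes was that of neflb (chromosome 8, 6874752 to 6877381). Its level was 0.104 and 0.220 RPKM at T1, 1.07 and 1.54 RPKM at T2 and 15.9 and 13.1 RPKM at T3. The stages did not overlap, and the log2 fold changes were 1.44 ± 0.21 (adjusted p = 0.00941) and 3.07 ± 0.15 (adjusted p = 0.000172), the first of which was not called with a pseudocount of 1. Next came nefma (chromosome 21, 19013850 to 19018455), with 0.869 and 0.167 RPKM at T1, 3.52 and 4.79 RPKM at T2 and 23.6 and 19.8 RPKM at T3, and log2 fold changes of 2.27 ± 0.39 (adjusted p = 0.0137) and 2.26 ± 0.15 (adjusted p = 0.000336).

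The light- and medium-chain genes are neighbours in the genome. On chromosome 8, nefmb and neflb lie 7861 bases apart on opposite strands, and both rose at both steps. On chromosome 21, nefla and nefma lie 3007 bases apart on opposite strands, and there nefma rose whereas nefla read 3.71 and 3.75 RPKM at T1, 2.10 and 1.65 RPKM at T2 and 3.31 and 2.23 RPKM at T3. Both T2 values of nefla were below its T1 values, by a log2 fold change of -0.84 ± 0.16 (adjusted p = 0.0199) that stayed under the fold threshold.

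The internexin genes moved in opposite directions. The gene inab (chromosome 1, 31864468 to 31867717) read 0.901 and 0.0463 RPKM at T1, 10.98 and 11.9 RPKM at T2 and 33.0 and 33.9 RPKM at T3, and rose by 3.77 ± 0.46 and 1.51 ± 0.07 on the log2 scale (adjusted p = 0.00611 and 0.000129). The gene inaa (chromosome 13, 28675686 to 28681036) read 9.30 and 9.87 RPKM at T1, 2.08 and 3.33 RPKM at T2 and 1.63 and 1.79 RPKM at T3. Its T1 values were more than those of any later library, and it fell by 1.68 on the log2 scale to T2 (SE 0.22, adjusted p = 0.00744) and by 2.19 to T3 (SE 0.12, adjusted p = 0.000565). At T1 inaa was thus the higher copy and at T2 and T3 inab was. The exons of inaa overlap by 57 bases those of LOC103912010 on the opposite strand, which read 1.49 and 2.18 RPKM at T1 and 0.288 to 0.935 RPKM later. The sources used here do not say whether strand entered the counting, and reads of this short overlap cannot be told apart.

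**Figure D3:**
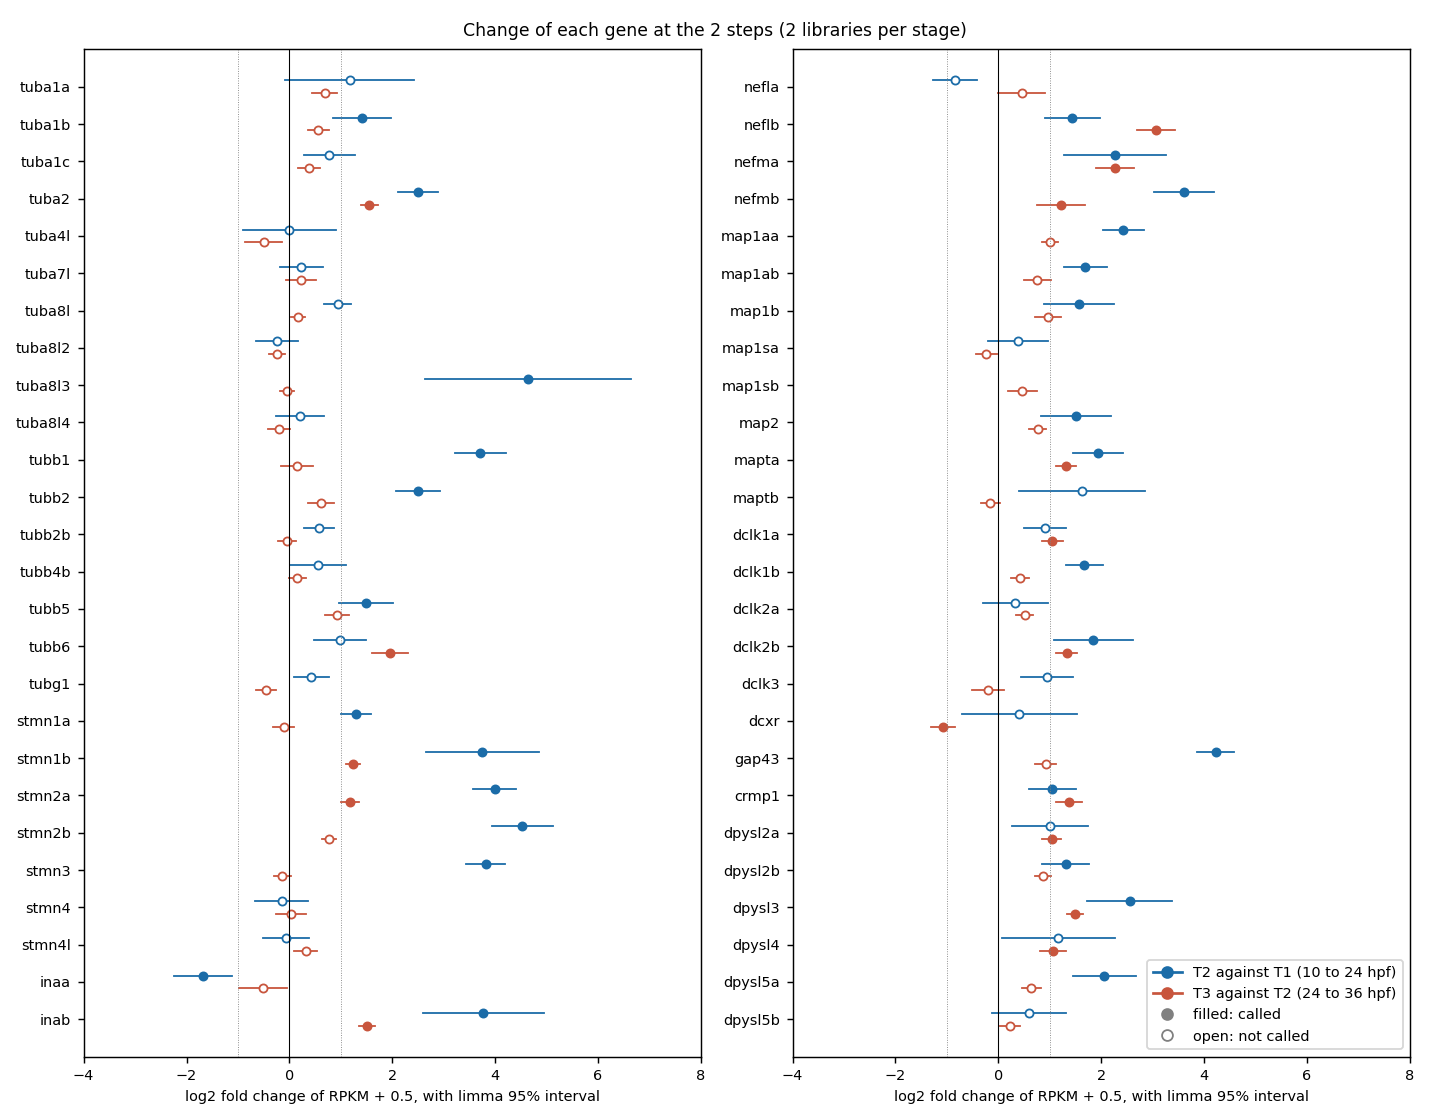
Log2 fold change of RPKM + 0.5 for each gene from T1 to T2 (blue) and from T2 to T3 (red), with limma's 95% interval; filled points were called and dotted lines mark the fold threshold. Wide blue intervals, such as that of tuba8l3 (2.64 to 6.64), come with T1 libraries that stand apart; most red intervals are narrow.

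The map1 genes, map2 and mapt (tau) encode proteins that bind along microtubules; in mammals MAP2 lies mainly in dendrites and tau mainly in axons. Of 7 genes tested from T1 to T2, 5 rose, and of 8 tested later, mapta alone rose at the second step and 5 were called higher at T3 than at T1. The highest at T3 was map1aa (chromosome 7, 52830325 to 52876657), with 1.103 and 0.879 RPKM at T1, 7.60 and 7.36 RPKM at T2 and 15.6 and 15.2 RPKM at T3. Its stages did not overlap. It rose to T2 by 2.42 ± 0.15 on the log2 scale (adjusted p = 0.00160), and its later log2 fold change, 0.996 ± 0.06, was just under the threshold.

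The tau gene mapta (chromosome 12, 4734885 to 4802930) rose at both steps, from 0.931 and 0.628 RPKM at T1 to 4.55 and 4.21 RPKM at T2 and 11.3 and 12.0 RPKM at T3. The log2 fold changes were 1.94 ± 0.19 (adjusted p = 0.00373) and 1.32 ± 0.08 (adjusted p = 0.000247). The other tau gene, maptb, read 1.03 and 3.63 RPKM at T1, 7.33 and 7.22 RPKM at T2 and 6.18 and 6.80 RPKM at T3, and was not called (adjusted p = 0.0538 from T1 to T2), though it was called with a pseudocount of 1, with the filter at 1 RPKM, with all 6 libraries in the fit, with the replicate block, without the lncRNA genes, with voom and without T1 replicate 2. A rise was also called for map2, from 1.91 ± 0.82 RPKM at T1 to 6.18 ± 0.23 at T2, and it stood at 10.9 ± 0.11 at T3. It overlaps by 105 bases an assembled transcript on the opposite strand, which read 0.208 and 0.378 RPKM at T1 and 0.863 to 1.34 RPKM later.

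The exons of map1ab, map1b, map1sa and dpysl2b are annotated on 2 sequences, and their deposited exon length counts both, so that their RPKM may be understated. With that limit, map1ab went from 0.103 ± 0.007 RPKM at T1 to 2.81 ± 0.12 at T3 and map1b from 0.269 ± 0.24 to 3.85 ± 0.30, both called from T1 to T2 and from T1 to T3. By contrast, map1sa stayed between 2.26 and 4.04 RPKM and map1sb was at most 0.365 RPKM, neither called.

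Doublecortin-like kinases carry the tubulin-binding domain of doublecortin together with a kinase domain. Of the 5 dclk genes, 2 rose at the first step (dclk1b and dclk2b), 2 at the second (dclk1a and dclk2b), and these 3 were called between T1 and T3. The highest was dclk1b (chromosome 15, 32867420 to 32875106), with 4.09 and 3.501 RPKM at T1, 12.5 and 13.9 RPKM at T2 and 17.9 and 17.7 RPKM at T3, a rise of 1.67 ± 0.14 on the log2 scale to T2 (adjusted p = 0.00275). The gene dclk2b (chromosome 23, 45611629 to 45622370) was called at both steps, from 0.760 and 0.225 RPKM to 3.002 and 2.89 RPKM and then 7.82 and 8.49 RPKM (log2 fold changes 1.85 ± 0.30 and 1.33 ± 0.08, adjusted p = 0.0121 and 0.000273). In neither gene did a stage overlap another. The reductase gene dcxr, matched by its letters only, read 25.8 and 10.1 RPKM at T1, 21.7 and 21.5 RPKM at T2 and 9.03 and 10.9 RPKM at T3. It fell by 1.08 on the log2 scale from T2 to T3 (SE 0.10, adjusted p = 0.000756), a call that was lost with all 6 libraries in the fit, under median centring, under quantile normalization and without T3 replicate 1.

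GAP-43 is a membrane-associated protein of growth cones. The gene gap43 (chromosome 15, 47161917 to 47176147) read 5.62 and 4.60 RPKM at T1, 99.1 and 109 RPKM at T2 and 209 and 186 RPKM at T3. Every stage lay above the one before, and the gene moved from rank 7681 at T1 to 621 at T2 and 271 at T3. Its rise to T2 was 4.22 ± 0.14 on the log2 scale (adjusted p = 0.000471), and the later log2 fold change of 0.92 ± 0.08 (adjusted p = 0.000849) was under the fold threshold, and over it under median centring, under quantile normalization and without T3 replicate 2. At T3 only tubulin genes stood above it among the 52.

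The collapsin response mediators carry semaphorin signals to the growth cone, and in mammals CRMP2, the product of DPYSL2, binds tubulin dimers. Of the 7 genes, 4 rose from T1 to T2 (crmp1, dpysl2b, dpysl3 and dpysl5a), 4 from T2 to T3 (crmp1, dpysl2a, dpysl3 and dpysl4) and 6 from T1 to T3, dpysl5b being the exception. The highest at T3 was dpysl3 (chromosome 21, 42970983 to 43015383), with 1.56 and 0.598 RPKM at T1, 8.14 and 8.49 RPKM at T2 and 24.3 and 24.2 RPKM at T3. No stages overlapped, and it rose by 2.55 ± 0.32 and 1.49 ± 0.06 on the log2 scale (adjusted p = 0.00666 and 0.000115).

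The gene dpysl2b on chromosome 10 read 4.33 and 3.15 RPKM at T1, 9.68 and 10.2 RPKM at T2 and 18.2 and 19.0 RPKM at T3, with a called rise to T2 (log2 fold change 1.31 ± 0.18, adjusted p = 0.00797). Lower in level but called at both steps, crmp1 (chromosome 1, 14343317 to 14364712) read 0.507 and 0.399 RPKM, then 1.59 and 1.36 RPKM, then 4.805 and 4.45 RPKM. The rise of crmp1 to T2, 1.05 ± 0.17 on the log2 scale (adjusted p = 0.0128), was lost with a pseudocount of 1, under quantile normalization and without T1 replicate 2.

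**Figure D4:**
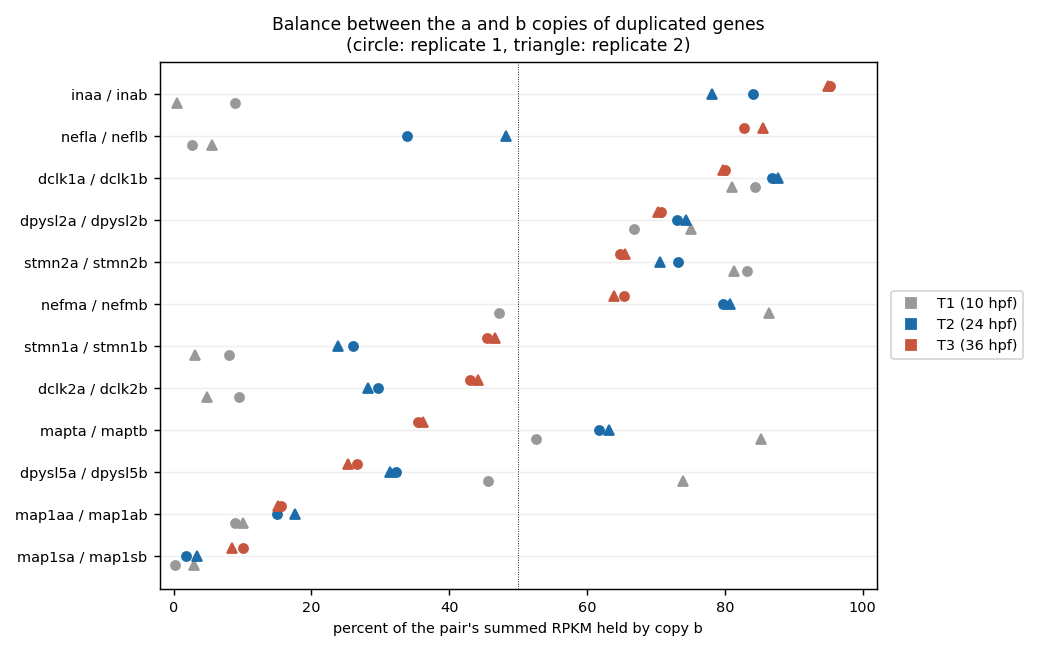
Share of copy b in the summed RPKM of 12 pairs of genes other than tubulins whose symbols differ by the ending a or b. Shares are in percent for each library. Circles are replicate 1 and triangles replicate 2, with T1 in grey, T2 in blue and T3 in red. The ina and nefl pairs cross the dotted line at 50% from copy a to copy b, and the T1 libraries disagree most for nefm, mapt and dpysl5.

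With the tubulins left out, the 52 genes hold 12 pairs whose symbols differ only by the ending a or b. Copies kept from the genome duplication of teleost fish are named in this way. The tubulins tuba1a and tuba1b were not taken as a pair. The share of copy b in the pair's summed RPKM did not overlap between T1 and T3 in 10 pairs, being higher at T3 in 6 and lower in 4. The shares of dpysl2 and nefm overlapped. Lack of overlap was common between these stages: of the levels of all genes tested, 39.7% were higher and 38.5% lower at T3 without overlap. The copy with the higher stage mean changed between T1 and T3 in 4 pairs. For ina, copy b made up 0.467% to 8.83% at T1, 78.2% to 84.1% at T2 and 94.98% to 95.3% at T3. For nefl it made up 2.72% to 5.54% at T1, 33.8% to 48.2% at T2 and 82.8% to 85.5% at T3. In both pairs every library of a stage stood above those of the stage before.

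The mapt and dpysl5 pairs went the other way, with copy b at 52.6% and 85.3% at T1 and 35.4% and 36.1% at T3 for mapt, and at 45.6% and 74.0% at T1 and 26.6% and 25.3% at T3 for dpysl5. In these pairs the T1 libraries disagreed by a wide margin. Copy a stayed the higher one in stmn1 and dclk2, while the share of copy b went from 5.51% ± 3.5 to 46.0% ± 0.82 for stmn1 and from 7.17% ± 3.3 to 43.6% ± 0.80 for dclk2. The stmn2 and dclk1 pairs kept copy b ahead at 64.8% or more in every library. The shares within map1a, map1s and dpysl2 rest on a gene with doubled exon annotation. With 2 libraries a stage, the difference between copies was not tested.

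Among partner genes of the tubulins, most calls were among the motors of axonal transport. Of all genes tested from T1 to T2, 12.1% were called higher and 3.29% lower. The shares were 3.92% and 2.12% from T2 to T3 and 16.3% and 8.66% from T1 to T3. These shares hold for called genes only. No share over all genes was taken at an unadjusted p under 0.05, so counts by that rule are descriptions without a background. Of 7 measured genes of the gamma-tubulin ring complex, which nucleates microtubules, limma called 0 in every comparison and voom called 0. At an unadjusted p under 0.05, 1, 2 and 3 of them were lower in the comparisons of T2 with T1, T3 with T2 and T3 with T1, and none higher. Of 8 tubulin folding cofactors limma also called 0, with 3, 1 and 2 higher and 2, 3 and 2 lower at an unadjusted p under 0.05, while voom called 1 higher from T1 to T2 and 1 from T1 to T3. Of 21 tubulin-modifying enzymes, which add or remove amino acids or acetyl groups on tubulin, 1, 0 and 2 were called higher and none lower. These counts lay below the shares over all genes, but among 21 genes they are too small to be weighed against them, and the difference was not tested. At an unadjusted p under 0.05, 4, 5 and 6 of the enzymes were higher and 1, 5 and 5 lower. By voom, 1, 0 and 3 were called higher and 0, 0 and 2 lower. Between T1 and T3 limma called agbl1, from 0.216 ± 0.12 to 1.24 ± 0.20 RPKM (log2 fold change 1.28 ± 0.19, adjusted p = 0.00593). It also called ttll7, which adds glutamates to tubulin, from 1.22 ± 0.16 to 3.58 ± 0.31 RPKM (1.25 ± 0.15, adjusted p = 0.00344). The largest fall among the enzymes, that of ttll4 from 8.47 ± 0.91 to 4.03 ± 0.05 RPKM, stayed under the fold threshold (-0.98 ± 0.13, adjusted p = 0.00438).

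Of 22 end-binding, minus-end-binding and severing genes, 3 were called higher from T1 to T2 and from T1 to T3 (camsap1a, camsap2b and clip3). That is near the 12.1% and 16.3% of all genes tested that were called higher. The severing gene katnal1 was called lower from T1 to T2, from 12.4 and 21.9 RPKM to 6.84 and 6.45 RPKM, a call that was lost without T1 replicate 2 and without either T2 library. From T2 to T3 none was called, 7 were higher and 4 lower at an unadjusted p under 0.05, and voom called 1 higher. The gene camsap1a, whose protein protects microtubule minus ends, rose from 0.607 ± 0.26 RPKM at T1 to 4.88 ± 0.09 at T3 (2.30 ± 0.21, adjusted p = 0.00165), and clip3 from 0.0524 ± 0.052 to 2.08 ± 0.04 RPKM (2.23 ± 0.15, adjusted p = 0.000785).

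Kinesins, dynein and dynactin carry cargo along axons. Of 21 measured genes of these motors, 10 were called higher at the first step, 6 at the second and 12 between T1 and T3, and none lower. At an unadjusted p under 0.05, 13, 16 and 17 of them were higher and 2, 3 and 2 lower. The 2 lower from T1 to T3 were kif5ba, from 62.4 ± 5.5 to 42.8 ± 0.58 RPKM, and klc2, from 52.1 ± 3.1 to 35.9 ± 0.61 RPKM. The kinesin-1 heavy chain gene kif5aa read 0.234 and 0.115 RPKM at T1, 9.48 and 10.2 RPKM at T2 and 28.1 and 26.6 RPKM at T3 (T1 to T3 log2 fold change 5.37 ± 0.15, adjusted p = 0.000158). The kinesin-3 gene kif1ab read 0.380 and 0.150 RPKM, then 3.59 and 3.81 RPKM, then 10.8 and 10.3 RPKM (3.87 ± 0.19, adjusted p = 0.000457). Of 15 genes of the mitotic spindle limma and voom called 0 in every comparison. Their median log2 fold changes were -0.22, -0.33 and -0.54, with 6, 14 and 12 genes lower and 1, 0 and 0 higher at an unadjusted p under 0.05. Those unadjusted counts cannot be set beside the whole table, for which only adjusted p-values were counted. By limma's adjusted p under 0.05 without a fold threshold, 3188 of 25088, 5780 of 25183 and 5929 of 25184 genes tested were lower. By that adjusted rule only prc1a and bub1 of the spindle genes were lower at T2 than at T1, and prc1b was higher. All spindle genes but kif11 and prc1b were lower at T3 than at T2. All but kif11, kifc1, prc1b and cdk1 were lower at T3 than at T1. Whether the spindle genes differed from the whole table was not tested.

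**Figure D5:**
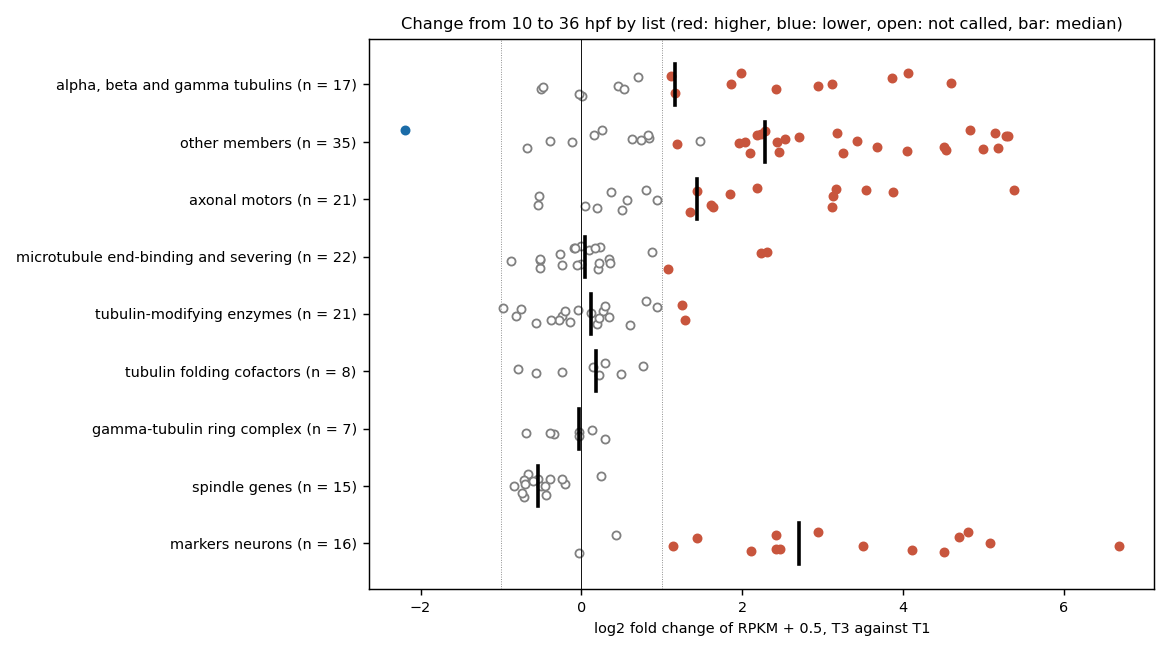
Log2 fold change of RPKM + 0.5 from T1 to T3 of the tubulins, the other genes of the 52, the partner lists and the neuron markers; red points were called higher, blue lower, open points were not called, and the bar is the median. Called genes are dense among the axonal motors (12 of 21) and neuron markers (14 of 16), against 16.3% called higher over all genes tested. The 15 spindle genes, none called, lie mostly to the left of 0.

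Across all genes tested, 12.1% were called higher at the first step, 3.92% at the second and 16.3% between T1 and T3. Called lower between T1 and T3 were 8.66%. Beside these shares, markers of neurons were also examined. Of 16, among them elavl3 and elavl4, which encode neuronal RNA-binding proteins, 13 were called higher at the first step, 10 at the second and 14 between T1 and T3, and none lower. Their summed level was 28.9 to 41.8 RPKM at T1, 183 to 197 RPKM at T2 and 419.6 to 434 RPKM at T3, and none was at 0 in all libraries or in a T1 library. Of 9 measured neural progenitor markers 3 were higher and 2 lower at T3 against T1, and of 7 glial markers 3 were higher and 1 lower. Of 11 tested motile cilia markers, whose cells are rich in tubulin, 1 was higher and 1 lower, and the sums over all 12 were 18.6 to 27.1 RPKM at T1, 35.1 RPKM in both T2 libraries and 32.7 to 32.9 RPKM at T3. Other tissues changed as well between T1 and T3: 7 of 10 skeletal muscle, 6 of 7 erythroid and 8 of 8 lens markers were higher, 3 of 7 epidermal markers were higher and 2 lower, and 3 of 6 tested germ cell markers were lower. The part of cell numbers in the levels of the 52 genes was not tested.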

How the data were processed

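Whole AB embryos at T1, T2 and T3 gave 2 libraries each. The authors depleted ribosomal RNA, made stranded libraries, aligned reads with STAR to GRCz11, counted reads in exons with featureCounts of Subread and deposited RPKM values. The authors compared stages with edgeR. Reads recovered from RPKM, exon length and library unit came out whole for 100% of values (tolerance 0.01 reads), and 43611332 to 51846237 reads in genes per library set the counting precision.

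The 52 members and all gene lists were chosen with earlier results of these data known. On log2(RPKM + 0.5), limma 3.58.1 (R 4.3.3, statmod 1.5.0; trend and robust) was fitted to the 4 libraries of each pair of stages, over genes of at least 0.1 RPKM in 2 of them, with Benjamini-Hochberg adjustment over all; ± after a log2 fold change is its SE. Named with full values were the 2 highest genes of each class, the 4 largest called rises and falls per comparison, genes called at both steps or against their class, and the 2 most changed called partners of each list at T3 against T1; others named in the text were chosen after their values were seen. Alternatives covered pseudocount, filter, scaling, libraries, call rule and voom on recovered reads. The fit was tested on simulated data. Tables and plots were made with Python 3.11.15, numpy 2.4.6, pandas 2.3.3 and matplotlib 3.10.9. The lncRNA table was used only for transcripts opposite to members and to leave its genes out in 1 alternative; its RPKM may not be on the same scale. Partner genes mzt1 and kif3ca and marker genes her4.1, mbpa, krt18a.1 and hbae1.1 were not found under these symbols. Protein identity between members was not analysed here.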

Additional observations from a re-analysis of the deposited data

How the results depend on the processing

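No called gene of the 52 changed sign under any alternative, and pseudocounts of 0.1 and 1, filters, variance moderation and leaving out lncRNA genes kept all counts of called members within 1.5 times. With 2 libraries a stage, p-values rest on few degrees of freedom. Genes called lower from T1 to T2 numbered 2 under quantile normalization, with voom and without a fold threshold. Without a fold threshold, 32 were called higher and 4 lower from T2 to T3, beside 4100 higher and 5780 lower of all 25183 genes tested. From T2 to T3 the call of dcxr was lost (0 lower) with all 6 libraries, median centring and quantile normalization. Partner genes without a fold threshold were 23 higher and 6 lower from T1 to T2, 22 and 26 from T2 to T3, and 27 and 22 from T1 to T3. The partner lists held 7, 8, 21, 22, 21 and 15 tested genes. By the same rule the whole table gave 5446 higher and 3188 lower of 25088, 4100 and 5780 of 25183, and 6979 and 5929 of 25184. Whether the partner lists differed from the whole table was not tested. Partner genes lower from T1 to T3 were 2 with a pseudocount of 0.1 and with voom and 3 with quantile normalization. Scaling moved the median of all genes: median centring by 0.13 and 0.12 in the comparisons of T3 with T2 and T1, and quantile normalization by -0.20 from T1 to T2 and -0.18 from T1 to T3. Calls over all genes, 3038 higher and 825 lower from T1 to T2, became 2253 and 1474 under quantile normalization; 4112 and 2181 from T1 to T3 became 3310 and 3060; and 987 and 533 from T2 to T3 became 1282 and 361 under median centring. The members' median from T2 to T3 became 0.71 under median centring.

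Leaving out 1 library gave 0 to 35 members higher and 0 to 1 lower from T1 to T2, 14 to 17 higher and 0 to 1 lower from T2 to T3, and 24 to 35 higher and 1 to 2 lower from T1 to T3. The medians were 1.12 to 1.40, 0.54 to 0.67 and 1.99 to 2.41. Partner genes numbered 0 to 15 higher and 0 to 2 lower from T1 to T2, 5 to 7 higher from T2 to T3, and 11 to 19 higher and 0 to 2 lower from T1 to T3. In the fit of all 6 libraries, added after the data were seen, leaving out 1 gave 27 to 35 members higher from T1 to T2, 3 to 8 from T2 to T3 and 33 to 35 from T1 to T3, with 1, 0 and 1 to 2 lower.

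Some uncalled differences of the named genes turned in sign. From T2 to T3, stmn1a became 0.012 under median centring and 0.0527 under quantile normalization, tuba8l3 0.078 and 0.093, and tubb2b 0.076 and 0.051; tubg1 from T1 to T3 became 0.090 under median centring. Without 1 library, tubb2b from T2 to T3 ranged from -0.11 to 0.014, tubg1 from T1 to T3 from -0.10 to 0.048, tuba8l4 from T1 to T2 from -0.021 to 0.44 and from T1 to T3 from -0.23 to 0.24, and dcxr from T1 to T2 from -0.25 to 1.07. The causes were not tested. Over the named genes and all alternatives that kept every library, 280, 267 and 285 values in the 3 comparisons kept direction and call, 2, 9 and 0 gained a call and 3, 4 and 0 lost one. As shares of reads rather than RPKM, 14 of 26 tubulin shares moved by more than 1 SD, tuba8l4 to 57.9%, 43.4% and 34.9%.

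The labels name nothing that same-numbered libraries share beyond the number. Deviations of same-numbered libraries correlated at 0.02 (T1 and T2), -0.06 (T2 and T3) and -0.06 (T1 and T3). With the replicate block, 28, 15 and 35 members were called higher and 1, 1 and 1 lower.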

Other observations

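Some cytoskeletal genes fell outside the symbol rule and were looked up after the tables were opened. Peripherin (prph), a neuronal intermediate filament gene, rose from 0.843 ± 0.01 RPKM at T1 to 5.55 ± 0.17 at T2 and stood at 10.7 ± 0.48 at T3, with a called rise at the first step (log2 fold change 2.17 ± 0.14). The growth-cone gene basp1 rose at both steps, from 0.165 ± 0.02 to 3.64 ± 0.18 and 13.5 ± 1.1 RPKM (2.64 ± 0.16 and 1.76 ± 0.08). Of the MAP6 genes, whose products stabilise microtubules, map6a rose at both steps, from 0.246 ± 0.03 to 1.80 ± 0.20 and 4.74 ± 0.03 RPKM, and map6b at the first, from 0.570 ± 0.05 to 4.35 ± 0.22 RPKM, with 7.78 ± 0.19 at T3. The delta and epsilon tubulin genes, which serve centrioles, read 0.688 to 1.197 RPKM (tubd1) and 3.51 to 5.97 RPKM (tube1) and were not called, nor was map7a, at 0.108 to 0.404 RPKM.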
